A study of Mus musculus with 36 samples.

Results

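The genes described here encode factors of pre-mRNA splicing: the heterogeneous nuclear ribonucleoproteins (hnRNPs), the serine/arginine-rich (SR) proteins and the subunits of the splicing factors SF3a and SF3b. They were taken as every gene whose single annotated symbol starts with Hnrnp, Srsf (or the older Sfrs), Sf3a or Sf3b, which gave 36 of the 12393 genes measured. The 36 comprised 18 hnRNP genes, 9 SR genes, 3 SF3A genes and 6 SF3B genes. They were measured by 100 probe sets, and the values of the several probe sets of 26 of these genes were averaged. A further 7 probe sets carry several symbols of which 1 falls under the rule, 3 for Hnrnpa1 with pseudogenes and 4 for Hnrnpa3 with Gm6793, and were left out, so Hnrnpa3 is not among the 36.

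Splicing removes introns from the primary transcript in the spliceosome, a large assembly of small nuclear RNAs and proteins. SR proteins bind short exonic sequences and mostly recruit the spliceosome to a nearby splice site, hnRNPs bind the transcript more widely and often oppose the use of a site, and SF3a and SF3b are parts of the U2 particle that anchor it at the branch point of the intron. In the heart, alternative splicing sets the isoforms of sarcomere, calcium-handling and ion channel proteins, and mice without Srsf1, Srsf2 or Hnrnpu in heart muscle are known to develop heart disease.

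Messenger RNA of the left ventricle was measured on 36 Affymetrix arrays, 1 per mouse, 8 weeks after surgery. The mice had either transverse aortic constriction (TAC), which narrows the aorta so that the ventricle pumps against a raised load, or SHAM surgery without it. TAC and SHAM mice were killed at 6 times of day 4 h apart, ZT03, ZT07, ZT11, ZT15, ZT19 and ZT23, with 3 mice in each of the 12 groups and 18 arrays in each surgery. The labels call the mice biological replicates, and strain, sex, age, light schedule and array batch are not stated in the labels.

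The question put by the design is how the daily course of transcripts in the pressure-loaded ventricle compares with that in the SHAM ventricle. The deposited values are on a log scale, taken here as log2, and are relative. Each probe set has a median of 0 over the 18 TAC arrays and, separately, over the 18 SHAM arrays. No gene can therefore be called higher or lower after TAC than after SHAM, and the tissue label cannot be checked by the level of its markers. What can be compared is the course over the day and the spread between mice. In bulk tissue, fewer cells of a type and less RNA per cell cannot be told apart. Precision is limited by the number of arrays.

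Several arrays stood apart from the others of their surgery. On replicate 3 of SHAM ZT11 the mean of the 11 measured of 14 thymocyte and T cell markers was 2.11, against -0.07 to 0.07 on the other SHAM arrays and -0.08 to 0.11 on the TAC arrays. All 11 of these markers were at their highest SHAM value on this array, 7 of them above 1, and the proliferation and white adipocyte marker means there were 1.05 and 1.08. On replicate 1 of TAC ZT23 the mean of 10 airway epithelium markers was 1.26, against -0.10 to 0.95 on the other TAC arrays and -0.06 to 0.76 on the SHAM arrays. On replicate 3 of TAC ZT11 the mean of the white adipocyte markers was 1.055. The mean of 11 ventricular cardiomyocyte markers lay between -0.22 and 0.13 on the TAC arrays and between -0.07 and 0.08 on the SHAM arrays. That of 6 atrial cardiomyocyte markers lay between -1.08 and 0.63 on the TAC arrays and between -1.04 and 0.28 on the SHAM arrays.

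The splicing factor genes moved with the first of these arrays. Their mean was 0.25 on replicate 3 of SHAM ZT11, against -0.12 to 0.05 on the other 17 SHAM arrays. For 26 of the 36 genes that array held the highest of the 18 SHAM values, which was so for 11.3% of all genes. The lowest SHAM value lay on replicate 3 of SHAM ZT03 for 16 of the 36 genes, against 11.8% of all genes. On the TAC side, replicate 2 of TAC ZT11 held the lowest value for 14 genes, against 12.1% of all genes, and replicate 3 of TAC ZT15 the highest for 12, against 15.8% of all genes. On replicate 2 of TAC ZT11 the thymocyte marker mean was 0.11 and that of activated fibroblasts 0.60, and on replicate 3 of TAC ZT15 they were -0.03 and -0.54, with 0.98 for white adipocytes. The part of other cells in the values of single genes was not tested, and the counts of rhythms and of changes of any shape are given below with and without replicate 3 of SHAM ZT11.

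**Figure D1:**
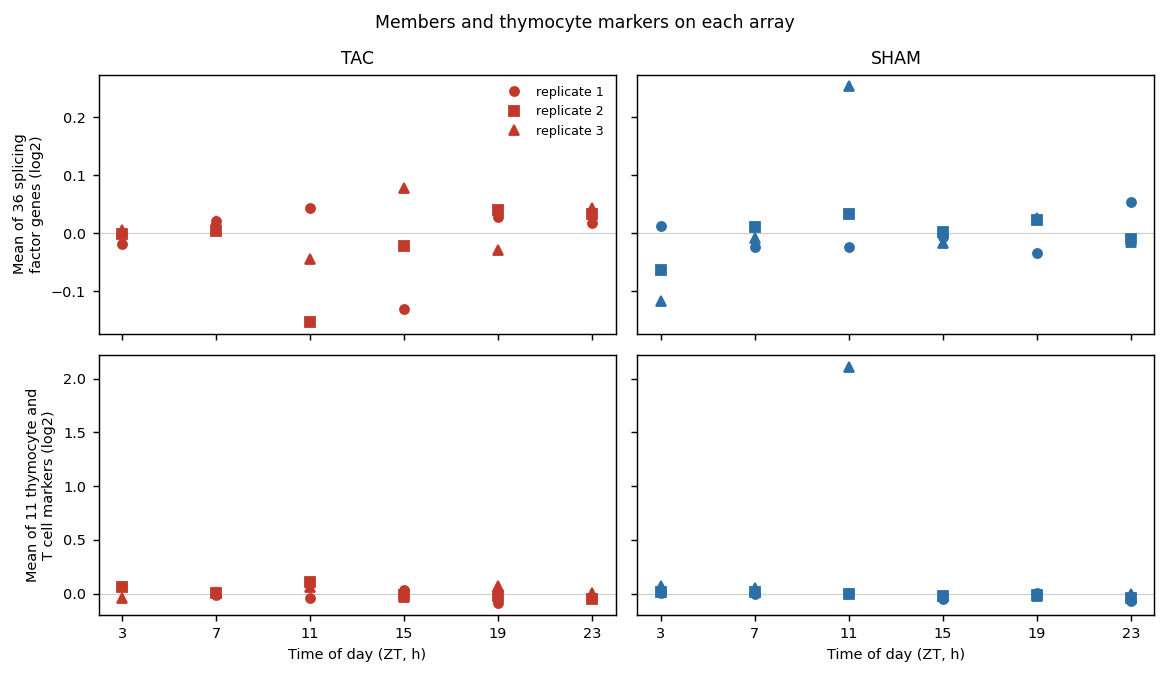
Mean log2 value of the 36 splicing factor genes (top) and of 11 thymocyte and T cell markers (bottom) on each array, by time of day, for TAC (left) and SHAM (right); each symbol is 1 mouse and its shape the replicate number. Replicate 3 of SHAM ZT11 stands alone at 0.25 for the splicing factor genes and at 2.11 for the thymocyte markers.

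Promoters are shown first for the 5 genes whose rhythm in SHAM ventricles passed the test both with and without that array, because these carry the results below. The sequences are the 250 bases before the transcription start, from RefSeq on build GRCm38.p6, 5′ to 3′ on the gene's strand, with the core of the cAMP response element in capitals (TGACG, or CGTCA where it lies on the other strand). The stretch before Srsf5 is chr12:80945249-80945498 (plus strand), that before Srsf10 is chr4:135855821-135856070 (plus), that before Srsf3 is chr17:29032410-29032659 (plus), that before Srsf1 is chr11:88047123-88047372 (plus) and that before Hnrnpk is chr13:58402118-58402367 (minus).
Srsf5: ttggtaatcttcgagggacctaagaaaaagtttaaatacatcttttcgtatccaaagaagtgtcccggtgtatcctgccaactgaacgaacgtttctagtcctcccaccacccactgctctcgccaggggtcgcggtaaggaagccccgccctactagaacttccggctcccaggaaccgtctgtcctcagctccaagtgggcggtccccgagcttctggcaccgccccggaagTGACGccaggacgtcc
Srsf10: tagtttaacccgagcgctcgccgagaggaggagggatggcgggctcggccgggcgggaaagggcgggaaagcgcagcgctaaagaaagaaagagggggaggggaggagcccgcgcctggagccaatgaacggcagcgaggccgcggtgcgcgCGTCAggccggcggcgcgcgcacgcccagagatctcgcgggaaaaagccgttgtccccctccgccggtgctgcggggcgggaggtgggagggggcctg
Srsf3: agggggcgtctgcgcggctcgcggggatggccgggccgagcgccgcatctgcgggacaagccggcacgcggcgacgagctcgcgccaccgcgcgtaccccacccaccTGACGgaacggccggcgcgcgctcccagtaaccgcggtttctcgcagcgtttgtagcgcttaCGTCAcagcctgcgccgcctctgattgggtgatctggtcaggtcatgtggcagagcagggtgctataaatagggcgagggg
Srsf1: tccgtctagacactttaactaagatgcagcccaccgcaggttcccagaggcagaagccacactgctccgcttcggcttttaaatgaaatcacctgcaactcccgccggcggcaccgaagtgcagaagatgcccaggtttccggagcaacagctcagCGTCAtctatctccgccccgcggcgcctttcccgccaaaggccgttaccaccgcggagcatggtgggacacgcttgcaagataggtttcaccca
Hnrnpk: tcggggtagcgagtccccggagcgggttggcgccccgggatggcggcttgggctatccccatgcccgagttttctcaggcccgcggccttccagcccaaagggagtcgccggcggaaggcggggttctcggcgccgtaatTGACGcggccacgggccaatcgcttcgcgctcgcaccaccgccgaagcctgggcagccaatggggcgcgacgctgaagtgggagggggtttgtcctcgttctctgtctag

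The core starts 16 bases before the transcription start in Srsf5, 98 in Srsf10, 143 and 81 in Srsf3, 94 in Srsf1 and 110 in Hnrnpk. RefSeq promoters were found for 32 of the 36 genes, 45 promoters in all, and those of Hnrnpll, Hnrnpul2, Sf3b4 and Sf3b5 were not used here. The core was present in 18 of the 45 promoters (40.0%), from 14 genes, against 17.8% of 32851 promoters of all genes. The median GC content was 63.6% in the splicing factor promoters and 52.4% in all promoters, and the core holds a CG, so the 2 shares differ in base composition as well. A heat shock element, searched as GAANNTTC or TTCNNGAA on both strands, was present in 6 of the 45 promoters (13.3%), those of Hnrnpa2b1, Hnrnpf, Hnrnpl, Sf3b2 and Srsf9, against 12.8% of all promoters. The E-box CACGTG, which reads the same on both strands, was present in those of Hnrnpd and Hnrnpf (4.44%), against 6.02% of all promoters. Neither element was found in the 5 stretches printed. A match of letters is a description and not a bound site.

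Over the day, SR genes held most of the rhythms among the splicing factors. A 24-h curve was fitted to each gene in each surgery with limma, over all 12393 genes and with p-values adjusted by Benjamini-Hochberg over all of them, and a gene was called at an adjusted p under 0.05. In TAC ventricles 2 of the 36 genes (5.56%) had a rhythm, Srsf5 and Srsf10, beside 4.35% of all genes. In SHAM ventricles 7 of the 36 (19.4%) had one, Srsf5, Srsf10, Srsf3, Hnrnpk, Sf3b1, Srsf1 and Srsf2, beside 5.58% of all genes. A joint test over both surgeries together asked for a rhythm in at least 1 of them. It called 9 of the 36 (25.0%), beside 9.13% of all genes. These 9 left out Srsf2 (adjusted p = 0.0519, limma) and added Srsf6, Hnrnpd and Hnrnpul2. At an unadjusted p under 0.05 the counts were 8 of 36 in TAC ventricles, beside 19.8% of all genes, and 14 of 36 in SHAM ventricles, beside 18.8%. Fitted with the arrays of 1 surgery alone, 1 of the 36 was called in TAC ventricles, Srsf5, beside 1.15% of all genes. The same fit called 8 in SHAM ventricles, beside 9.41%.

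By family, a rhythm was called for 2 of 9 SR genes in TAC ventricles and 5 of 9 in SHAM ventricles. Of the 18 hnRNP genes, 0 were called in TAC ventricles (limma, with 4 at an unadjusted p under 0.05) and 1 in SHAM ventricles. Of the 6 SF3B genes, 0 were called in TAC ventricles (0 at an unadjusted p under 0.05) and 1 in SHAM ventricles, and of the 3 SF3A genes none was called in either, with 0 at an unadjusted p under 0.05. With replicate 3 of SHAM ZT11 left out, the count was 4 in TAC ventricles, where Srsf6 and Hnrnpd joined, beside 4.83% of all genes. It was 5 in SHAM ventricles, where Sf3b1 and Srsf2 were lost, beside 5.50%, and 10 over both surgeries, where Hnrnpm joined, beside 9.70%. The TAC count was 1, Srsf5 alone, without replicate 2 of TAC ZT03 and also without replicate 3 of TAC ZT19.

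The amplitude, which is the height of the fitted curve above its mean on the log2 scale, had a median of 0.060 over the 36 genes in TAC ventricles and of 0.079 in SHAM ventricles. Over all genes the medians were 0.047 in TAC and 0.048 in SHAM ventricles. The amplitude in TAC was above that in SHAM for 13 of the 36 genes (36.1%), against 48.9% of all genes. Amplitudes of the 36 genes ran from 0.016 to 0.442 in TAC ventricles and from 0.010 to 0.532 in SHAM ventricles, and Srsf5 was at the top of both.

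**Figure D2:**
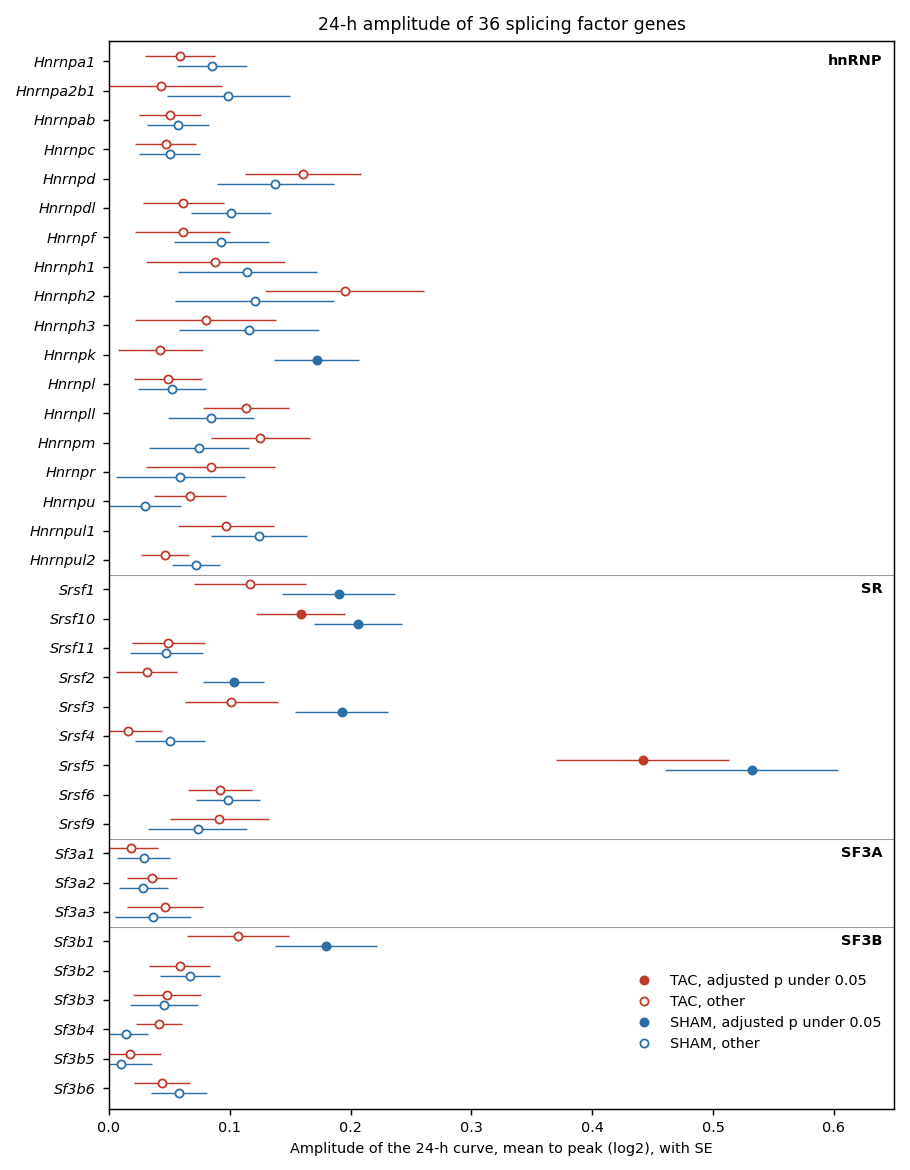
Amplitude of the fitted 24-h curve (log2, mean to peak) of each of the 36 genes in TAC (red) and SHAM (blue) ventricles, with its standard error; filled points passed the test at an adjusted p under 0.05. Srsf5, at 0.44 in TAC and 0.53 in SHAM, lies far to the right of all others, which stay below 0.21.

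Srsf5 is an SR protein that moves between nucleus and cytoplasm and binds purine-rich exonic enhancers, and its transcript varied most over the day. It was measured by 1 probe set. In TAC ventricles the values were 0.23, 0.18 and 0.01 at ZT03, 0.38, 0.15 and 0.33 at ZT07, 0.22, -0.29 and -0.07 at ZT11, -0.81, -0.63 and -0.88 at ZT15, -0.45, -0.01 and -0.42 at ZT19, and 0.40, 0.20 and -0.37 at ZT23. The SHAM values were 0.03, 0.10 and 0.10 at ZT03, 0.54, 0.61 and 0.57 at ZT07, 0.11, 0.34 and 0.64 at ZT11, -0.44, -0.36 and -0.45 at ZT15, -0.47, -0.52 and -0.61 at ZT19, and -0.09, -0.03 and -0.24 at ZT23. All 3 TAC mice at ZT15 lay below every other TAC mouse, and the 3 TAC mice at ZT23 were spread over most of the remaining range. In SHAM ventricles the 3 mice of ZT15 and the 3 of ZT19 lay below all others, and those of ZT07 and 1 of ZT11 were the highest. The ZT07 and ZT11 values overlapped within each surgery.

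The fitted curve of Srsf5 had an amplitude of 0.44 ± 0.07 in TAC ventricles and of 0.53 ± 0.07 in SHAM ventricles (SE from the shared variance, 18 arrays each). The peak-to-trough ratio was 1.85 in TAC and 2.09 in SHAM ventricles. Both curves passed the limma test, with an adjusted p of 0.00056 in TAC and 2.43e-05 in SHAM ventricles. The peak lay at ZT4.15 ± 0.62 h in TAC and at ZT6.99 ± 0.51 h in SHAM ventricles. The difference of peak time, TAC minus SHAM, was -2.83 ± 0.80 h. Its error rests on the shared variance, while the SD around the group means was 0.236 in TAC and 0.124 in SHAM ventricles. The difference of rhythm, amplitude and peak time together, had an unadjusted p of 0.00423 and an adjusted p of 0.578 in limma. Without replicate 3 of SHAM ZT11 the difference of peak time was -2.50 h, and without that array and replicate 1 of TAC ZT23 it was -2.03 h. The adjusted p of the difference of rhythm was then 0.714 and 0.886 (limma). Srsf5 was also the only one of the 36 genes with a change of any shape over the day in TAC ventricles (1 of 36, beside 5.26% of all genes, adjusted p = 0.000185).

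Srsf10, an SR protein that represses splicing when it is dephosphorylated, as in heat shock and mitosis, had a rhythm in both surgeries, with nearly the same fitted peak time. In TAC ventricles its values were -0.11, -0.23 and -0.01 at ZT03, -0.21, -0.17 and 0.01 at ZT07, 0.03, -0.20 and -0.03 at ZT11, 0.03, 0.03 and 0.41 at ZT15, 0.05, 0.14 and 0.26 at ZT19, and -0.09, -0.10 and 0.09 at ZT23. In SHAM ventricles they were -0.01, -0.20 and -0.10 at ZT03, -0.24, -0.20 and -0.22 at ZT07, -0.09, -0.01 and 0.17 at ZT11, 0.05, 0.24 and 0.14 at ZT15, 0.17, 0.17 and 0.38 at ZT19, and -0.07, -0.07 and 0.04 at ZT23. The 3 SHAM mice of ZT07 lay at the bottom with 1 of ZT03, and 1 mouse of ZT19 lay above all others. Among TAC mice, replicate 3 of ZT15 was the highest. All TAC mice of ZT03 and ZT07 lay below all of ZT15 and ZT19, and the ZT11 and ZT23 groups overlapped others.

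The Srsf10 amplitude was 0.16 ± 0.04 in TAC ventricles, with a peak at ZT17.2 ± 0.88 h, and 0.21 ± 0.04 in SHAM ventricles, with a peak at ZT17.3 ± 0.68 h (SE, n = 18 each). The adjusted p (limma) was 0.0214 in TAC and 0.00112 in SHAM ventricles, and the difference of peak time was -0.09 ± 1.11 h. All 4 probe sets peaked between ZT16.4 and ZT18.5 in TAC ventricles and between ZT15.7 and ZT18.5 in SHAM ventricles. Of the 4, 1 passed in TAC ventricles (limma adjusted p = 0.00641), and the others had 0.0699 to 0.329. The TAC call was lost without replicate 3 of TAC ZT15 (adjusted p = 0.0573), replicate 2 of TAC ZT03 (0.0531) or replicate 3 of TAC ZT19 (0.0543). It was also lost with TAC arrays alone (0.117), array weights (0.057) and the largest-SD probe set (0.318). Leaving out replicate number 1 (0.0934) or 2 (0.275) lost it too. The SHAM call was lost with the largest-SD probe set (0.0998) and without replicate number 2 (0.114).

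Srsf3, the smallest SR protein, which also takes part in mRNA export, was measured by 6 probe sets. In TAC ventricles the averaged values were 0.06, 0.13 and 0.12 at ZT03, -0.08, -0.05 and 0.03 at ZT07, -0.06, -0.14 and -0.09 at ZT11, -0.15, -0.11 and 0.15 at ZT15, -0.06, 0.04 and 0.001 at ZT19, and 0.01, 0.05 and 0.27 at ZT23. The averaged SHAM values were 0.31, -0.04 and -0.23 at ZT03, -0.14, -0.23 and -0.36 at ZT07, -0.19, -0.12 and 0.05 at ZT11, -0.04, 0.07 and -0.14 at ZT15, 0.12, 0.09 and 0.24 at ZT19, and 0.31, 0.17 and 0.09 at ZT23. The 3 SHAM mice of ZT19 and the 3 of ZT23 were all above 0, the 3 of ZT07 were all below it, and the 3 of ZT03 ran from among the lowest to the top. In TAC ventricles the 3 mice of ZT03 and the 3 of ZT23 were above 0, the 3 of ZT11 were below it, and the other groups held values on both sides.

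The amplitude of Srsf3 was 0.10 ± 0.04 in TAC ventricles (adjusted p = 0.243) and 0.19 ± 0.04 in SHAM ventricles (adjusted p = 0.0044, limma, n = 18 each). The peaks lay at ZT0.19 ± 1.46 h in TAC and ZT20.9 ± 0.77 h in SHAM ventricles. The difference of rhythm had an unadjusted p of 0.0378 and an adjusted p of 0.789. In SHAM ventricles the probe sets had amplitudes of 0.084 to 0.319 and all peaked between ZT20.0 and ZT22.0. Those that passed had an adjusted p (limma) of 0.00162 and 0.0224, and the others had 0.0578 to 0.427. The SHAM call of the gene was lost without replicate number 2 (0.209).

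Srsf1, the prototype SR protein and a regulator of Camk2d splicing in the mouse heart, had its lowest SHAM group means at ZT03 and ZT07. In TAC ventricles its values were -0.14, -0.11 and 0.04 at ZT03, -0.07, -0.07 and -0.08 at ZT07, 0.05, -0.29 and -0.03 at ZT11, -0.09, -0.02 and 0.32 at ZT15, 0.12, 0.26 and -0.004 at ZT19, and -0.01, -0.01 and 0.23 at ZT23. In SHAM ventricles they were -0.002, -0.28 and -0.34 at ZT03, -0.27, -0.23 and -0.23 at ZT07, -0.05, -0.07 and 0.42 at ZT11, 0.04, 0.07 and -0.02 at ZT15, 0.07, 0.16 and 0.30 at ZT19, and 0.13, 0.06 and 0.04 at ZT23. The 3 SHAM mice of ZT07 lay close together, below all SHAM mice of ZT11, ZT15, ZT19 and ZT23. Replicates 1 and 2 of ZT11 lay close together, and replicate 3 of that group, the array with thymocyte markers, was far above them and the highest SHAM value.

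The amplitude of Srsf1 was 0.12 ± 0.05 in TAC ventricles with a peak at ZT19.2 (adjusted p = 0.265) and 0.19 ± 0.05 in SHAM ventricles with a peak at ZT17.5 (adjusted p = 0.0268, limma, n = 18 each). Without replicate 3 of SHAM ZT11 the SHAM amplitude was 0.21 (adjusted p = 0.00161). The SHAM call was lost when any 1 of 7 other SHAM arrays was left out: replicate 2 (adjusted p = 0.0637) or 3 (0.0706) of ZT03, replicate 1 (0.0695), 2 (0.0644) or 3 (0.0602) of ZT07, or replicate 2 (0.052) or 3 (0.0807) of ZT19. It was also lost with the largest-SD probe set (0.0526) and without replicate number 1 (0.0904) or 2 (0.42). Of the 6 probe sets, 1 passed in SHAM ventricles (limma adjusted p = 0.0247), and the others had 0.0537 to 0.331.

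Srsf2, an SR protein of nuclear speckles that stays mostly in the nucleus, had a rhythm in SHAM ventricles that leaned on replicate 3 of SHAM ZT11. In TAC ventricles its values were -0.10, -0.03 and -0.03 at ZT03, 0.08, 0.06 and 0.09 at ZT07, 0.07, -0.14 and 0.02 at ZT11, -0.12, 0.04 and 0.13 at ZT15, -0.06, -0.05 and -0.06 at ZT19, and 0.01, 0.04 and -0.01 at ZT23. In SHAM ventricles they were -0.01, -0.05 and -0.17 at ZT03, 0.01, 0.01 and 0.03 at ZT07, 0.10, 0.15 and 0.30 at ZT11, 0.04, 0.03 and -0.05 at ZT15, -0.02, -0.01 and -0.06 at ZT19, and -0.08, -0.01 and -0.09 at ZT23. The mice of ZT11 held the 3 highest SHAM values, and the rest lay between -0.17 and 0.04. The amplitude was 0.03 ± 0.03 in TAC ventricles (adjusted p = 0.713) and 0.10 ± 0.03 in SHAM ventricles with a peak at ZT11.4 (adjusted p = 0.028, limma, n = 18 each). Without replicate 3 of SHAM ZT11 the SHAM amplitude was 0.078 and the adjusted p 0.114. The adjusted p was 0.0697 without replicate 2 of that group and 0.0503 without replicate 3 of SHAM ZT03. With the largest-SD probe set it was 0.226, and without replicate number 1, 2 or 3 it was 0.123, 0.205 or 0.347. In SHAM ventricles the Srsf2 probe sets had an adjusted p (limma) of 0.0244, 0.0335, 0.233 and 0.852.

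**Figure D3:**
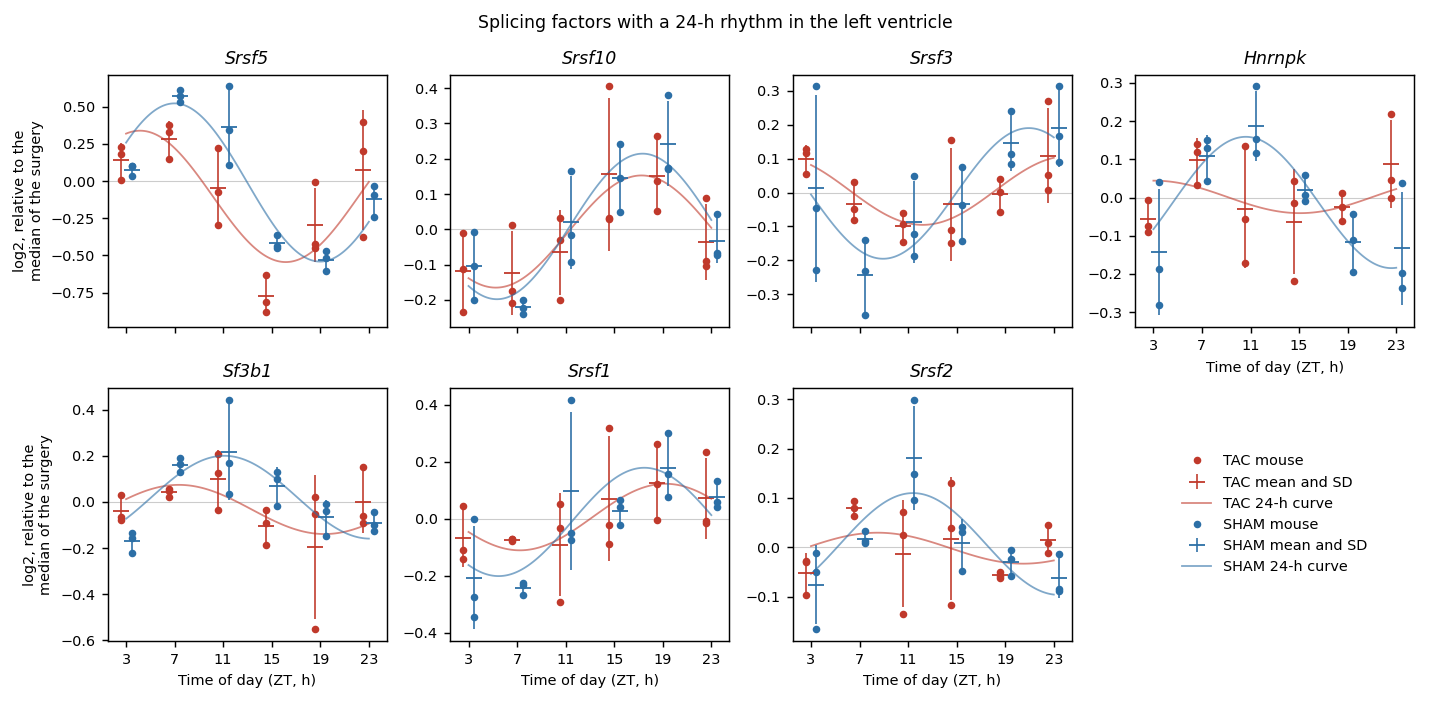
Log2 values, relative to the median of the surgery, of the 7 genes with a rhythm in TAC or SHAM ventricles, against time of day (ZT, h); points are mice, bars the group mean and SD (n = 3), and curves the fitted 24-h rhythm in TAC (red) and SHAM (blue). Srsf5 falls to a mean of -0.77 at ZT15 in TAC and to -0.53 at ZT19 in SHAM ventricles, and the vertical scale differs between panels.

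Of the other 4 SR genes, Srsf6, which binds exonic enhancers and takes part in tau splicing, came nearest to the threshold. Its amplitude was 0.09 ± 0.03 in TAC ventricles with a peak at ZT3.89 (adjusted p = 0.0827) and 0.10 ± 0.03 in SHAM ventricles with a peak at ZT7.52 (adjusted p = 0.0507, limma). Its 3 probe sets disagreed. Of these, 1 had an amplitude of 0.14 in TAC ventricles, peaking at ZT5.45, and of 0.22 in SHAM ventricles, peaking at ZT8.32. That probe set passed in both (limma adjusted p = 0.0306 in TAC and 0.000118 in SHAM ventricles), and the others passed in neither. Another peaked at ZT1.48 in TAC and at ZT0.03 in SHAM ventricles. Srsf6 was called in TAC ventricles when replicate 3 of SHAM ZT11 was left out. Srsf4, Srsf9 and Srsf11 had amplitudes of 0.016, 0.091 and 0.049 in TAC ventricles and of 0.050, 0.073 and 0.047 in SHAM ventricles, and none passed.

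Among the hnRNPs, with probe sets averaged, Hnrnpk was the only gene called in SHAM ventricles, and none was called in TAC ventricles. Hnrnpk carries KH domains, binds cytosine-rich RNA and DNA, and serves in transcription as well as splicing. In TAC ventricles its values were -0.09, -0.07 and -0.01 at ZT03, 0.14, 0.12 and 0.03 at ZT07, 0.14, -0.17 and -0.06 at ZT11, -0.22, -0.01 and 0.04 at ZT15, -0.02, 0.01 and -0.06 at ZT19, and 0.22, 0.05 and 0.00 at ZT23. In SHAM ventricles they were 0.04, -0.19 and -0.28 at ZT03, 0.13, 0.15 and 0.04 at ZT07, 0.12, 0.15 and 0.29 at ZT11, 0.01, -0.01 and 0.06 at ZT15, -0.20, -0.11 and -0.04 at ZT19, and 0.04, -0.24 and -0.20 at ZT23. The SHAM mice of ZT07 and ZT11 were all above those of ZT19, and the lowest SHAM values came from ZT03 and ZT23. In TAC ventricles all groups from ZT11 to ZT23 overlapped.

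The amplitude of Hnrnpk was 0.04 ± 0.04 in TAC ventricles (adjusted p = 0.724) and 0.17 ± 0.04 in SHAM ventricles, with a SHAM peak at ZT10.6 ± 0.78 h (adjusted p = 0.00514, limma, n = 18 each). Its difference of rhythm had the smallest unadjusted p of the 36 genes, 0.00193, and an adjusted p of 0.508. Without replicate 3 of SHAM ZT11 the SHAM amplitude was 0.15 (adjusted p = 0.0218), and the unadjusted p of the difference was 0.00576 in limma. All 4 probe sets peaked between ZT10.0 and ZT11.3 in SHAM ventricles, with an adjusted p (limma) of 0.00123, 0.0259, 0.139 and 0.243. The SHAM call of the gene was lost without replicate number 2 (0.288) or 3 (0.166).

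The other 17 hnRNP genes had amplitudes of 0.043 to 0.195 in TAC ventricles and of 0.030 to 0.138 in SHAM ventricles. Hnrnpd (AUF1), which binds AU-rich elements and speeds mRNA decay, had 0.16 ± 0.05 in TAC and 0.14 ± 0.05 in SHAM ventricles and passed only the test over both surgeries (adjusted p = 0.0407, limma). Its values ran from -0.41 to 0.17 in TAC ventricles and from -0.26 to 0.58 in SHAM ventricles, the last on replicate 3 of SHAM ZT11. Hnrnpul2, a nuclear scaffold protein related to Hnrnpu, passed the same test with 0.05 ± 0.02 in TAC and 0.07 ± 0.02 in SHAM ventricles (adjusted p = 0.0493). Apart from a filter on SD, the call over both surgeries was made in 14 of 48 alternatives for Hnrnpul2 and in 31 of 48 for Hnrnpd.

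Hnrnph2, Hnrnph1 and Hnrnph3, together with Hnrnpf, bind runs of guanines. Hnrnph2 had the highest hnRNP amplitude in TAC ventricles, 0.20 ± 0.07, and 0.12 ± 0.07 in SHAM ventricles, and passed in neither (adjusted p = 0.162 and 0.478). Its TAC values ran from -0.37 on replicate 2 of ZT11 to 0.75 on replicate 3 of ZT15, and its SHAM values from -0.41 to 0.31. Hnrnph1 and Hnrnpa2b1, a repressor of exon inclusion and reader of RNA sorting signals, had their TAC extremes on the same arrays, -0.39 and 0.53 for Hnrnph1 and -0.35 and 0.51 for Hnrnpa2b1.

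Hnrnpdl, a paralogue of Hnrnpd, had 6 probe sets that disagreed. Their amplitudes ran from 0.024 to 0.203 in TAC ventricles and from 0.015 to 0.193 in SHAM ventricles. The probe set with the largest SD passed in both (limma adjusted p = 0.0391 in TAC and 0.0498 in SHAM ventricles). Another passed in SHAM ventricles alone (0.0231), and the rest passed in neither. The average of the gene was 0.06 in TAC and 0.10 in SHAM ventricles, which did not pass. Hnrnpa1, the abundant antagonist of Srsf1 at splice sites, had 0.06 in TAC and 0.09 in SHAM ventricles with peaks at ZT8.60 and ZT9.30. Hnrnpl, Hnrnpll, Hnrnpm, Hnrnpr, Hnrnpu, Hnrnpul1, Hnrnpab, Hnrnpc, Hnrnpf and Hnrnph3 also did not pass in either surgery.

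The SF3 genes moved least, apart from Sf3b1. Sf3b1, the largest SF3b subunit, clamps the branch point duplex. In TAC ventricles its values were 0.03, -0.07 and -0.08 at ZT03, 0.02, 0.05 and 0.06 at ZT07, 0.21, -0.04 and 0.13 at ZT11, -0.09, -0.03 and -0.19 at ZT15, -0.05, 0.02 and -0.55 at ZT19, and 0.15, -0.09 and -0.06 at ZT23. In SHAM ventricles they were -0.13, -0.15 and -0.22 at ZT03, 0.13, 0.17 and 0.19 at ZT07, 0.04, 0.17 and 0.44 at ZT11, -0.02, 0.13 and 0.10 at ZT15, -0.15, -0.04 and -0.01 at ZT19, and -0.12, -0.10 and -0.04 at ZT23. In SHAM ventricles the 3 mice of ZT07 were all above 0 and the 3 of ZT03, of ZT19 and of ZT23 all below it. The highest SHAM value was again that of replicate 3 of ZT11, and the lowest TAC value was that of replicate 3 of ZT19.

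The amplitude of Sf3b1 was 0.11 ± 0.04 in TAC ventricles with a peak at ZT7.35 (adjusted p = 0.261) and 0.18 ± 0.04 in SHAM ventricles with a peak at ZT11.1 (adjusted p = 0.0186, limma, n = 18 each). The SHAM amplitude was 0.15 and the adjusted p 0.0817 without replicate 3 of SHAM ZT11. The SHAM call was also lost with the largest-SD probe set (limma adjusted p = 0.347) and with the thymocyte mean as a covariate (0.0814). Leaving out replicate number 2 (0.35) or 3 (0.0624) lost it too. In SHAM ventricles the Sf3b1 probe sets had an adjusted p (limma) of 0.00338, 0.0885 and 0.354. The 3 subunits of SF3a, Sf3a1, Sf3a2 and Sf3a3, had amplitudes of 0.018, 0.035 and 0.047 in TAC ventricles and of 0.029, 0.029 and 0.037 in SHAM ventricles. Of the other SF3b subunits, Sf3b2, Sf3b3, Sf3b4, Sf3b5 and Sf3b6 (the subunit next to the branch adenosine), none passed, and the highest amplitudes were those of Sf3b2, 0.059 in TAC and 0.067 in SHAM ventricles. Their highest and lowest values on any array were 0.25 and -0.28.

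**Figure D4:**
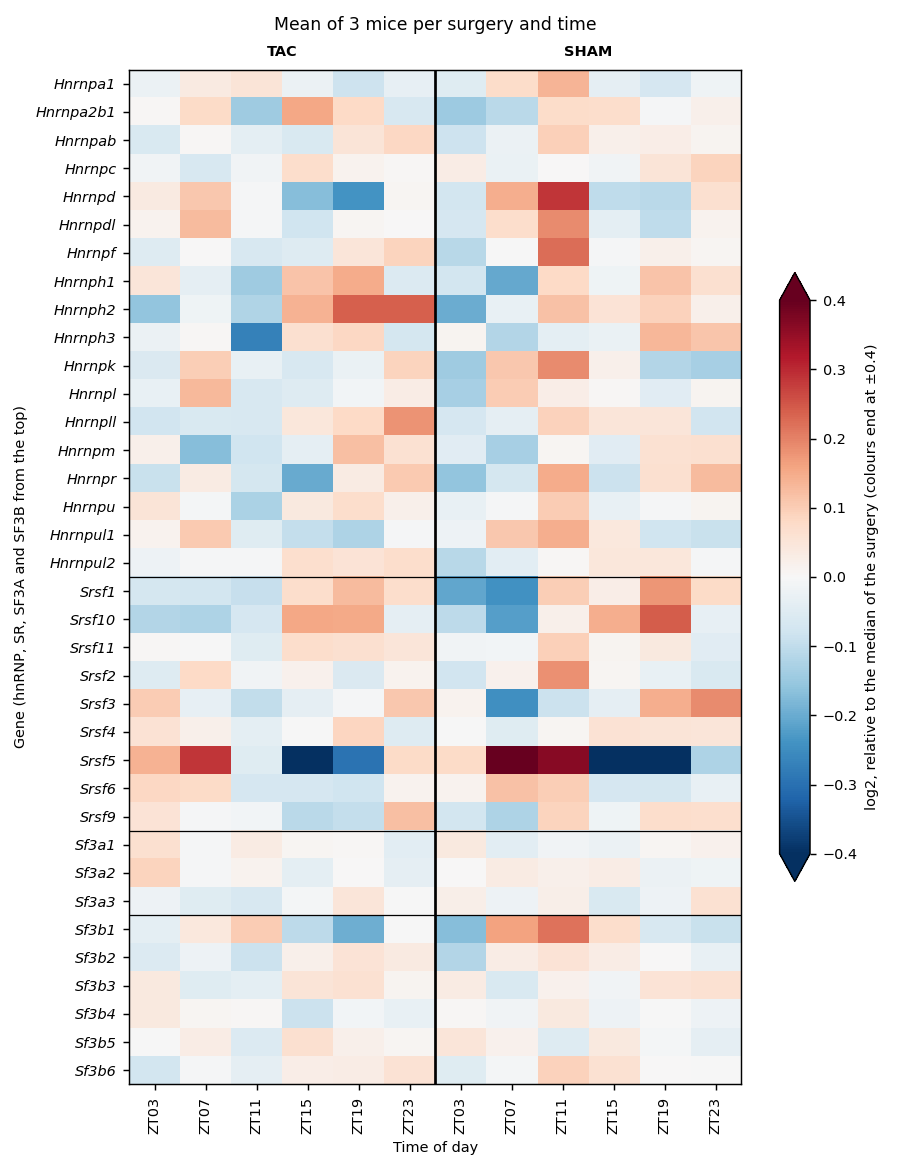
Mean log2 value of 3 mice, relative to the median of the surgery, of each of the 36 genes (rows, hnRNP, SR, SF3A and SF3B from the top) at each time of day (columns) in TAC (left) and SHAM (right) ventricles; colours end at ±0.4. The Srsf5 row holds the deepest colours, the SHAM ZT11 column is high across many hnRNP rows, and the SF3A rows stay pale throughout. The SHAM ZT11 means include replicate 3, the array with thymocyte markers, which held the highest SHAM value for 26 of the 36 genes.

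A test that assumes no curve asked whether any group of a surgery differed from the others. It called 1 of the 36 genes in TAC ventricles, Srsf5, and 5 (13.9%) in SHAM ventricles, Srsf5, Srsf10, Srsf3, Hnrnpk and Srsf2, beside 3.37% of all genes. Without replicate 3 of SHAM ZT11 the SHAM calls were 4, Srsf5, Srsf10, Srsf3 and Srsf1, beside 3.12% of all genes, so that Hnrnpk and Srsf2 were lost and Srsf1 joined. The SHAM count was sensitive to single arrays, with values of 1 to 9 when 1 array or 1 replicate number was left out, and Srsf5 was called in each of these.

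No splicing factor gene passed a test of the difference between the surgeries. The difference of rhythm was called by limma for 0 of the 36 genes, beside 0.0484% of all genes. At an unadjusted p under 0.05 it held for 7 of the 36 (19.4%), beside 6.27% of all genes: Hnrnpk, Srsf5, Hnrnpll, Sf3b2, Srsf3, Hnrnpf and Srsf9. Hnrnpll peaked at ZT20.2 in TAC and ZT13.9 in SHAM ventricles. The highest SHAM value of Hnrnpll, 0.30, was on the array with thymocyte markers. So were those of Hnrnpk, Srsf5, Sf3b2, Hnrnpf and Srsf9, while that of Srsf3 was not. The difference of the time course, with no curve assumed, was called for 0 of the 36 genes, beside 0.0161% of all genes, and at an unadjusted p under 0.05 for 4 (Srsf5, Hnrnpk, Srsf2 and Hnrnpu), beside 5.57%. Rhythms that passed in SHAM and not in TAC ventricles, such as that of Hnrnpk, are therefore not shown to differ between the surgeries. The time course of Srsf5 passed the test of the difference without replicate 3 of TAC ZT23, the only one of the 36 genes to do so in that fit, beside 0.218% of all genes.

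The spread between mice of a group was taken as the SD around the 12 group means. It was larger in TAC than in SHAM ventricles for 19 of the 36 genes (52.8%), beside 71.9% of all genes, and the median log2 ratio of the SDs, TAC over SHAM, was 0.03 over the 36 genes and 0.29 over all genes. Without the 2 arrays with a thymocyte or airway marker mean above 1, replicate 3 of SHAM ZT11 and replicate 1 of TAC ZT23, it was larger in TAC ventricles for 28 of the 36 (77.8%), beside 77.4% of all genes, with median log2 ratios of 0.55 and 0.39. The SD of Srsf5 was 0.236 in TAC and 0.124 in SHAM ventricles, and 0.215 and 0.081 without the 2 arrays. That of Hnrnph3 was 0.248 in TAC and 0.081 in SHAM ventricles, where replicate 2 of TAC ZT11, at -0.62, and replicate 1 of TAC ZT23, at -0.56, lay far below the rest. Srsf3 ran the other way, with 0.097 in TAC and 0.150 in SHAM ventricles. The spread was described without a test.

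**Figure D5:**
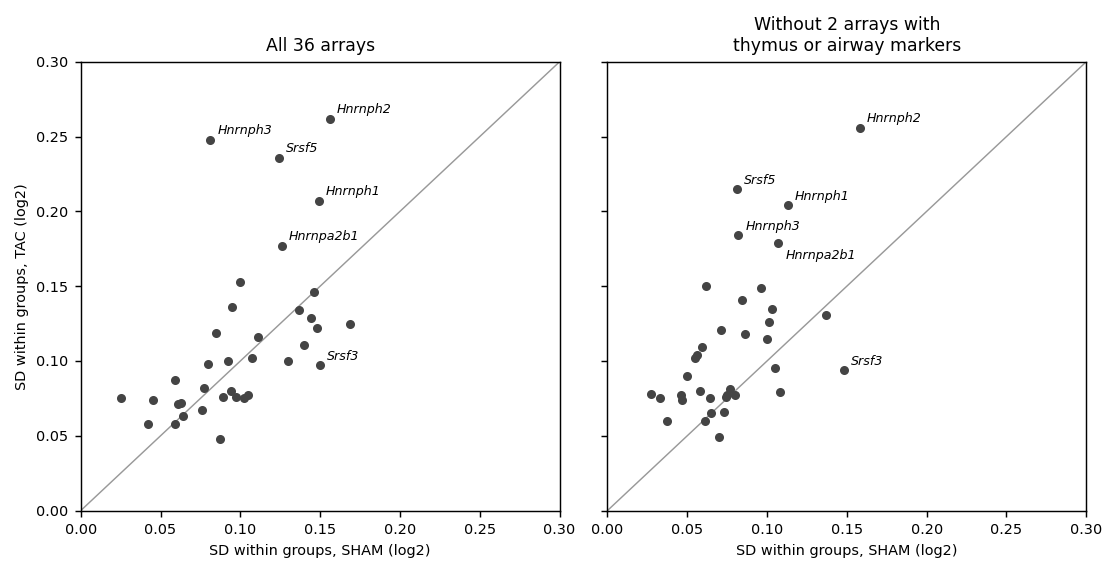
SD around the group means (log2) of each of the 36 genes in TAC (vertical axis) against SHAM (horizontal axis) ventricles, over all 36 arrays (left) and without replicate 3 of SHAM ZT11 and replicate 1 of TAC ZT23 (right); the line marks equal SDs. On the left 19 of the 36 genes lie above the line and on the right 28, with Srsf5 and Hnrnph2 well above it in both.

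Other genes of the splicing machinery were set beside these 36. Among the SR protein kinases and SR-related proteins, 3 of 25 measured (12%) had a rhythm in TAC ventricles, beside 4.35% of all genes, and 4 (16.0%) in SHAM ventricles, beside 5.58%. Luc7l3, a U1-associated protein, had an amplitude of 0.18 ± 0.03 in TAC and 0.22 ± 0.03 in SHAM ventricles, with peaks at ZT17.6 and ZT18.6 (adjusted p = 0.00198 and 6.46e-05, limma). Tra2b, a sequence-specific splicing activator, had 0.24 ± 0.05 in TAC and 0.21 ± 0.05 in SHAM ventricles, with peaks at ZT16.6 and ZT15.7. Its paralogue Tra2a passed in SHAM ventricles alone, at 0.24 with a peak at ZT17.9. The difference of rhythm of Tra2a did not pass (limma adjusted p = 0.789). The kinase gene Prpf4b peaked at ZT18.5 in TAC and ZT19.0 in SHAM ventricles with an amplitude of 0.10 in both.

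Of 12 measured hnRNPs and other RNA-binding proteins with other symbols, 1 (8.33%) had a rhythm in TAC ventricles, beside 4.35% of all genes. In SHAM ventricles 2 (16.7%) had one, beside 5.58%. Elavl1, which stabilises AU-rich mRNAs, had an amplitude of 0.26 ± 0.05 in TAC and 0.22 ± 0.05 in SHAM ventricles. Cirbp, the cold-inducible RNA-binding protein, had 0.15 ± 0.08 in TAC ventricles (adjusted p = 0.481) and 0.55 ± 0.08 in SHAM ventricles (adjusted p = 5.28e-05, limma), with an unadjusted p of 0.000467 and an adjusted p of 0.282 for the difference. The U2AF and PRPF spliceosome proteins had 0 of 27 called in TAC ventricles (limma, 6 at an unadjusted p under 0.05). In SHAM ventricles 2 (7.41%) were called, beside 5.58% of all genes, Prpf38b and Prpf3, which peaked at ZT18.4 and ZT18.0. The difference of rhythm did not pass for Prpf38b or Prpf3 (limma adjusted p = 0.897 and 0.957). Of 13 snRNP proteins, 0 were called in TAC and 0 in SHAM ventricles, with 2 and 1 at an unadjusted p under 0.05. Of 7 proteins of the exon junction and of nonsense-mediated decay, 0 were called in TAC and 0 in SHAM ventricles, with 1 and 2 at an unadjusted p under 0.05.

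Among 15 measured splicing regulators of heart and muscle, 2 (13.3%) were called in TAC ventricles, beside 4.35% of all genes, and 1 (6.67%) in SHAM ventricles, beside 5.58%. Qk, a STAR-family regulator of muscle splicing, had an amplitude of 0.16 ± 0.04 in TAC and 0.08 ± 0.04 in SHAM ventricles, with an adjusted p of 0.018 in TAC and 0.353 in SHAM ventricles. Khdrbs3 was called in TAC ventricles at 0.24, with 0.14 in SHAM ventricles. Rbm5 was called in SHAM ventricles at 0.085, with 0.013 in TAC ventricles. The difference of rhythm did not pass for Qk, Khdrbs3 or Rbm5 (limma adjusted p = 0.902, 0.926 and 0.803). Heat shock genes, whose products include the chaperones of temperature stress, had 5 of 16 (31.2%) called in TAC ventricles, beside 4.35% of all genes, and 8 in SHAM ventricles, beside 5.58%. The smallest p-values over both surgeries were those of Hsp90aa1, with 0.36 ± 0.06 in TAC and 0.42 ± 0.06 in SHAM ventricles and peaks at ZT19.2 and ZT20.5, and Dnaja1, with 0.37 ± 0.07 in TAC and 0.47 ± 0.07 in SHAM ventricles.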

How the data were processed

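The deposited table held log-scale values, taken as log2, for 22690 probe sets on 36 arrays. How they were summarised, normalized and centred, and the log base, is not given in the sources used here. Per the labels' protocols, ventricles were frozen in liquid nitrogen, and 6 ug of Trizol-extracted total RNA was turned into biotinylated cRNA. Probe set medians were within 1e-06 of 0 over the 18 TAC and over the 18 SHAM arrays, array medians ranged from -0.036 to 0.027, and 0 pairs of arrays were identical. Surgery, time and replicate number came from the sample titles.

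Of the probe sets, 20393 had 1 gene symbol in the platform annotation (13 controls left out), 691 several and 1606 none. Entrez identifiers of 20351 matched RefSeq. Probe sets of a gene were averaged, with no filter, giving 12393 genes. In limma 3.58.1 (R 4.3.3) each surgery was given its own mean and 24-h cosine and sine terms over all 36 arrays, with 1 variance per gene shared by the surgeries. Moderated F-tests on these terms, and on 12 group means, were adjusted over all genes (Benjamini-Hochberg) and read at 0.05. Errors of amplitude and peak time came from the delta method. The fits were tested on simulated data. The level of TAC against SHAM was not tested because of the centring.

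Values per array are given for members that passed a test in either surgery, at most 12 by the joint p. Of each other list, up to 4 passing genes with the smallest joint p are named. Other members are given by amplitude or range, and single arrays and probe sets were named after their values were seen. The members and the lists were chosen with earlier results of these data known. Alternatives were quantile normalization, array median centring, array weights, variance priors, the replicate number as a block, 1 surgery alone, the probe set with the largest SD, a filter on SD, 2 arrays left out for a thymocyte or airway marker mean above 1, the thymocyte mean as a covariate, and leaving out single arrays or all arrays of a replicate number. Figures were drawn with matplotlib 3.10.9.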

Additional observations from a re-analysis of the deposited data

How the results depend on the processing

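Of the 36 genes, the counts called for a rhythm were 2 in TAC ventricles, 7 in SHAM ventricles and 9 over both surgeries together. For a change of any shape they were 1 in TAC and 5 in SHAM ventricles, and for a difference of rhythm or of time course 0 each. Most settings left these counts within 1.5 times, except that of any shape in SHAM ventricles, which many single arrays moved. Quantile normalization called 2 for any shape in TAC (3.22% of all genes) and 8 in SHAM ventricles (6.87%). The iterations of limma array weights did not all converge. Those weights called 14 for a rhythm in SHAM ventricles (15.9% of all genes) and 16 over both surgeries together (17.9%). For any shape they called 16 in TAC (40.1%) and 19 in SHAM ventricles (29.2%), and for the difference of time course 7 (14.0%). The TAC arrays alone gave 1 rhythm (1.15% of all genes), and the SHAM arrays alone 8 (9.41%). The probe set with the largest SD gave 4 rhythms (4.83%) and 1 change of any shape (2.93%) in SHAM ventricles. Rhythms in TAC ventricles numbered 5 (5.43%) without the 2 arrays with a thymocyte or airway marker mean above 1. With the thymocyte mean as a covariate they numbered 4 (4.75%).

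When arrays or replicate numbers were left out, rhythms numbered 1 to 4 in TAC, 1 to 9 in SHAM and 2 to 11 over both surgeries. Changes of any shape numbered 1 to 2 in TAC and 1 to 9 in SHAM ventricles. The counts were 0 to 0 for the difference of rhythm, 0 to 1 for that of time course and 13 to 27 for a larger spread in TAC. For any shape in SHAM ventricles the count was 9 without replicate 1 of SHAM ZT03 and 1 without replicate 1 of SHAM ZT07. It was 2 without replicate 1, 2 or 3 of SHAM ZT19, replicate 2 of SHAM ZT03 or ZT07, or replicate 3 of SHAM ZT23. It was 3 without replicate 3 of SHAM ZT03 or ZT07, replicate 2 of SHAM ZT11, replicate 1 or 2 of SHAM ZT15 or ZT23, replicate 1, 2 or 3 of TAC ZT07 or replicate 2 of TAC ZT03. Without replicate 3 of TAC ZT03, any shape in TAC ventricles gave 2. Without all arrays of replicate number 2, Srsf5 alone had a rhythm in each surgery. The rhythm of Srsf5 was called in all 50 alternatives in both surgeries, with an adjusted p up to 0.0352 in TAC and 0.00874 in SHAM ventricles. The cause of these changes was not tested.

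The labels do not say that a replicate number marks a shared day or batch. Deviations of same-numbered arrays of different groups correlated at -0.36 to 0.43 (median 0.04, 198 pairs, with medians of -0.01 within TAC and 0.10 within SHAM), and 23 of 36 arrays correlated best with their own number, which is a hint of pairing from the data and not from the design. With the replicate number as a block, 2 rhythms were called in TAC (4.68% of all genes) and 7 in SHAM ventricles (5.7%). Over both surgeries together 8 were called (9.71%). Changes of any shape numbered 2 in TAC ventricles (5.28%), Srsf5 and Srsf10, and 4 in SHAM ventricles (3.32%). Those 4 were Srsf5, Srsf10, Srsf3 and Sf3b1, and Hnrnpk and Srsf2 were not called. Depth does not apply to arrays, and signal over background was not analysed here.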

Other observations

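Probe sets with several symbols were fitted apart, with p-values adjusted over all 22690 probe sets. For the 4 probe sets of Hnrnpa3 with Gm6793, a pair had amplitudes of 0.20 in TAC ventricles, both peaking near ZT21.5 to ZT21.6, against 0.04 and 0.09 in SHAM ventricles, and the other two had 0.03 and 0.07 in TAC and 0.05 and 0.08 in SHAM ventricles. None passed in limma (lowest adjusted p = 0.0867, in TAC ventricles). For Hnrnpa1 with its pseudogenes, 1 of 3 probe sets had 0.04 in TAC ventricles and 0.18 in SHAM ventricles with a peak at ZT10.3 (adjusted p = 0.811 in TAC and 0.0186 in SHAM, limma). The other two had 0.07 and 0.05 in TAC and 0.07 and 0.14 in SHAM ventricles and did not pass. These probe sets cannot tell the gene from its near-identical copies.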
